A study of Homo sapiens with 24 samples.

Results

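The account below covers the late phase of a transcription block in control cells: the change in each transcript of LacZ cells between 180 and 360 min of actinomycin D. It rests on 6 of the 24 libraries of the series, the 3 of LacZ cells at 360 min set against the 3 at 180 min, chosen by their titles. All 38849 genes of the table were considered, and the 12096 genes with a mean of at least 10 over the 24 libraries were tested. HMLE is an immortalized human mammary epithelial cell line. In the control it expressed LacZ, a bacterial enzyme, and in the other line it expressed RBMS3, an RNA-binding protein whose target transcripts the study set out to find by their stability. Both lines grew with serum, epidermal growth factor, hydrocortisone and insulin, and received actinomycin D at 10 µg/mL for 0, 90, 180 or 360 min. Each line has 3 libraries per time. Separate cultures for the 3 libraries are not stated in the labels. The p-values therefore reflect library-to-library spread alone, and that spread may be technical.

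Actinomycin D binds DNA and blocks RNA polymerases, so after it is added most transcripts are taken to persist or decay. Short-lived messages, many of them encoding transcription factors and signalling regulators, are lost within the first hours, while messages for ribosomal proteins and metabolic enzymes can last for many hours. By the last interval the shortest-lived messages are mostly gone, and transcripts of intermediate lifetime remain to be lost. Each library is scaled to the others, so a stable transcript gains share as others decay. A value that rises here is therefore a gain relative to the rest of the library. Neither the amount of RNA per cell nor any RNA still made under the drug was measured.

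The libraries were made from the 3' ends of polyadenylated RNA. From the table, the 6 libraries held an implied 6407871 to 8037188 reads each. Within the 2 groups, pairs of libraries had a Pearson r across genes of 0.937 to 0.950. Basal mammary markers were well above 0 in each of the 6 libraries (6 of 6 genes, with a summed normalized count of 20448 to 20897 at 180 min and 22770 to 23304 at 360 min), as were 8 of 8 epithelial markers. Of the leukocyte and endothelial markers, CD3D, VWF and CDH5 were listed at 0 throughout, and CD14 was 7.49 to 44.8. RBMS3 itself was 27.6, 97.0 and 59.2 at 180 min and 73.3, 77.8 and 165 at 360 min in LacZ cells, and PRRX1, a mesenchymal transcription factor named in the series title, was listed at 0 in all 6. The files attached to 12 of the 24 sample records matched another sample's column better than their own, among them all 6 records used here, so only the table, matched by title, was used. A level below is a normalized count, and a difference is taken after adding 1 to it and converting to log2.

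Between 180 and 360 min, 126 genes fell and 23 rose. These 149 genes are 1.23% of those tested in limma at an adjusted p under 0.05 (1.04% lower and 0.19% higher), and the median difference over all 12096 genes was 0.01. Those that fell had a median difference of −0.93 and a median of 52.1% of their 180 min level left at 360 min. Those that rose were mostly small changes of abundant transcripts, with a median difference of 0.36. Both groups of 3 libraries were fully separated for all 149 genes. Without overlap, 9.46% of all tested genes were lower and 9.74% higher, so separation of the libraries alone was common.

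**Figure D1:**
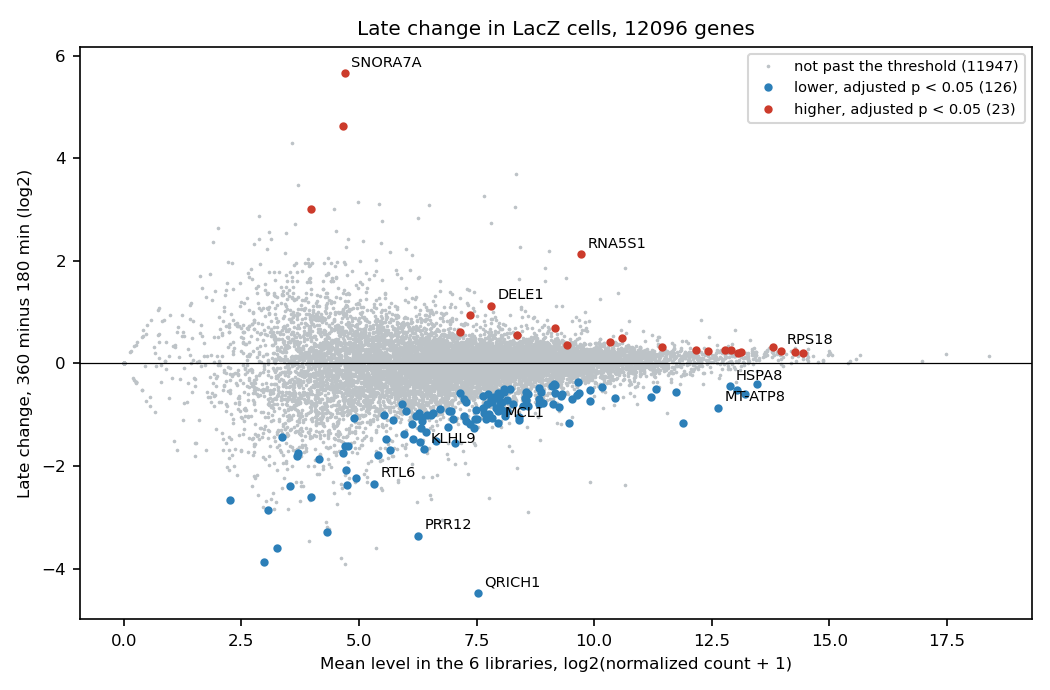
Late change of each of the 12096 tested genes in LacZ cells (vertical axis, log2, 360 minus 180 min) against its mean level in the 6 libraries (horizontal axis, log2(normalized count + 1)). The 126 genes that fell (blue) spread over all levels, while most of the 23 that rose (red) lie at high levels with changes under 1 log2 unit.

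Both other scalings tried moved the median of all genes down, which favours falls and works against rises. That the falls kept their call under them is therefore no test of the falls. No scaling that moves the median up was tried. When libraries were scaled to the same total, the split was 12 higher and 193 lower, and the median of all genes moved to −0.05. When they were scaled to the ribosomal protein genes, it was 6 higher and 432 lower, with a median of −0.17. All 126 genes that fell were called lower under both of these scalings, and 6 of the 23 that rose were called higher under both: RNA5S1, SNORA7A, ZNF28, CREB3L1, DELE1 and GPX1. The count also depended on the libraries used to estimate the spread: with LacZ 180 min replicate 1 or replicate 2 left out it was 71 genes, without LacZ 360 min replicate 2 it was 94, with only the 12 LacZ libraries it was 46, and with only the 6 libraries compared it was 13.

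KLHL9, an adaptor that brings substrates to a cullin ubiquitin ligase, was among the 12 largest falls of well-measured genes. It had levels of 120, 131 and 128 at 180 min and 32.7, 51.0 and 34.7 at 360 min. All 3 later values lay under all 3 earlier ones, and the difference was −1.68 ± 0.21 (SE, n = 3 and 3; limma adjusted p = 2.5e-04). At 180 min 71.5% of its mean level at 0 min was present, and it was called in neither earlier interval. Its rate did not differ past the threshold between the last and the first interval (−0.46 per hour; limma adjusted p = 0.15). In RBMS3 cells its mean was 311 at 0 min and 117 at 180 min.

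RTL6, a gene derived from a retrotransposon gag sequence, fell as well. Its levels were 63.8, 74.7 and 58.1 at 180 min and 17.4, 8.66 and 11.6 at 360 min, without overlap. The difference was −2.34 ± 0.28 (limma adjusted p = 1.5e-04), after 90.4% of the 0 min level had remained at 180 min. FLRT3, a cell adhesion protein of the leucine-rich repeat family, went from 85.7, 36.3 and 73.1 to 13.4, 21.5 and 16.7 (−1.79). The remaining members of this group were CCDC8, a component of the 3M growth-control complex (−1.47), FASTKD5, which acts in the processing of mitochondrial RNA (−1.47), RBM15, a subunit of the writer of N6-methyladenosine (−1.53), TRIM11, a ubiquitin ligase (−1.51), MIDN, which delivers nuclear proteins to the proteasome (−1.55), E2F6, a repressor of the E2F family (−1.37), and C16orf70 (−1.69). The late call was lost under 9 of the 16 other settings for FLRT3, RBM15 and TRIM11, and under 5 for C16orf70.

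Of these 12 genes, the pair with the largest differences also had the largest spread between libraries. QRICH1, a glutamine-rich nuclear regulator of stress responses, was 147, 240 and 675 at 180 min and 10.7, 12.6 and 12.7 at 360 min (−4.48 ± 0.81; limma adjusted p = 0.0063). At 90 min its levels were 134, 16.8 and 18.3, all under the lowest at 180 min. PRR12 was 22.3, 36.6 and 376 and then 2.63, 10.5 and 6.37 (−3.36 ± 0.71; adjusted p = 0.019 in limma), and the call was lost under 5 of the 16 other settings, among them without LacZ 180 min replicate 3, the library with 376, and without LacZ 360 min replicate 1 or replicate 3.

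**Figure D2:**
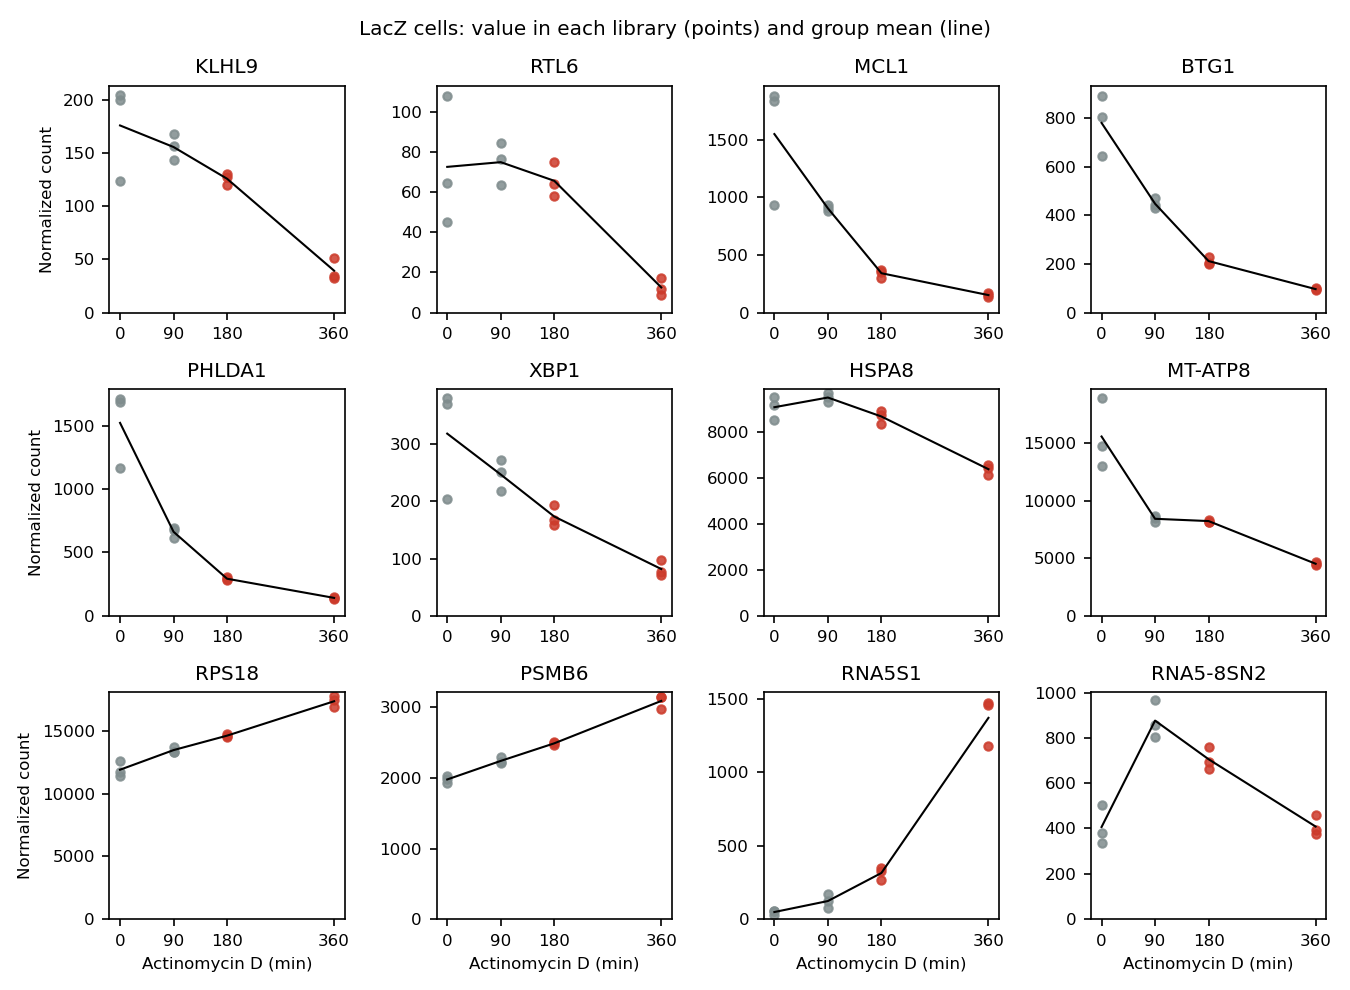
Normalized count (vertical axes, from 0) of 12 transcripts in each LacZ library (points, 180 and 360 min in red) against min of actinomycin D, with lines through the group means. KLHL9 and RTL6 have 71.5% and 90.4% of their 0 min mean at 180 min and less at 360 min. MCL1, BTG1 and PHLDA1 have lost most of theirs by 180 min, and RNA5S1 climbs from 57.2, 28.7 and 58.3 to 1460.5, 1472 and 1180.

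Of 44 tested genes in a list of immediate early and labile regulators, 6 fell late, against 1.04% of all tested genes, and none rose, and their median difference was −0.54, against 0.01 for all tested genes. They were MCL1, BTG1, SOX9, KLF6, FOSL1 and IER5. The first 90 min had called 21 of the 44 lower, and FOSL1 differed there by −0.07. Of 15 feedback inhibitors of ERK signalling, PHLDA1 and DUSP4 fell and none rose, with a median of −0.65.

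MCL1, a short-lived member of the BCL2 family that keeps cells alive, was 299.8, 369.8 and 356 at 180 min and 132, 156 and 169 at 360 min. The later libraries lay under the earlier ones, and the difference was −1.16 ± 0.23 (limma adjusted p = 0.014). Its level at 360 min was 9.82% of that at 0 min. Of the 16 tested BCL2 family genes it was the only one past the threshold, where 1.23% of all tested genes passed. BTG1, an antiproliferative protein that recruits the CCR4-NOT deadenylase, went from 206, 230.4 and 199.9 to 96.8, 93.8 and 99.6 (−1.12 ± 0.20; limma adjusted p = 0.0063). The libraries of each time lay close together for it, and 12.4% of its starting level was left.

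PHLDA1, a pleckstrin homology-like protein induced by growth factors, went from 280.3, 304 and 294 to 139.5, 133 and 152 (−1.04 ± 0.19; limma adjusted p = 0.0062). DUSP4, a phosphatase of ERK and JNK, had levels of 206, 132 and 128 and then 97.6, 49.6 and 102 (−0.93). KLF6, a zinc finger transcription factor, fell from 282, 304 and 268 to 164, 173 and 170.0 (−0.75). SOX9, a transcription factor of mammary progenitors, fell from 382, 357 and 441 to 207, 211 and 264 (−0.79), and FOSL1, a subunit of AP-1, from 536, 515 and 615 to 331, 369.95 and 439.5 (−0.55). The late call was lost under 9 of the 16 other settings for KLF6, 8 for SOX9 and 6 for DUSP4. IER5, an immediate early gene, had 785, 635 and 834 at 0 min, and its levels at 360 min were 3.07, 7.70 and 1.16 after 26.2, 32.2 and 18.2 at 180 min (−2.61; limma adjusted p = 0.019). It lay near the limit that 3 reads per library allow, a normalized count of about 3.14.

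AU-rich elements in 3' untranslated regions are the best-known signals for rapid decay, so the reference 3' untranslated regions were searched for the 7 bases TATTTAT on the sense strand. Sites in 5 of the genes that fell are shown to illustrate what was counted. They come from GENCODE release 29 on GRCh38, since the sources used here name no build for the deposited table, and are written 5′ to 3′ with the motif in capitals:
MCL1, chr1:150575806-150575835, minus strand: ccctctacagaTATTTATatcaattcctac
IER5, chr1:181092443-181092472, plus strand: gtgtcttccttTATTTATttatttatttaa
PHLDA1, chr12:76029881-76029910, minus strand: aagaagactttTATTTATgaacctttgaaa
BTG1, chr12:92140769-92140798, minus strand: aatagatttctTATTTATctgaaggtatac
ARF6, chr14:49896859-49896888, plus strand: atccatttctgTATTTATgtgaatttataa
MCL1 and PHLDA1 hold 3 copies each, BTG1 and ARF6 hold 1, and IER5 holds 4, of which 3 overlap at the site shown. ARF6, a small GTPase of membrane traffic at the cell surface, was 352, 321 and 295 at 180 min and 168, 186 and 206 at 360 min (−0.79; limma adjusted p = 0.0013).

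Over the whole set of late falls the motif was not more frequent than elsewhere. It was present in 34 of the 116 nuclear protein-coding genes that fell and have a reference 3' untranslated region (29.3%), and in 34.0% of all 11200 such tested genes. In the list of labile regulators 26 of 43 genes had it (60.5%). By number of copies, the median late difference was 0.03 for none, −0.02 for 1, −0.05 for 2 and −0.02 for 3 or more. A match of these letters is a description of the sequence and not a site at which a factor was shown to bind. Among 23 tested inflammatory transcripts with AU-rich elements, of which 21 held the motif, none passed the late test, and their median difference was 0.06. With 1.23% of all tested genes called, the lack of a call here says little. In the first 90 min 6 of the 23 were called lower, against 2.74% of all tested genes, with a median of −0.74. Their late median in RBMS3 cells was −0.38. AREG, a ligand of the epidermal growth factor receptor, was 2973 to 3010 and then 3288 to 3350.

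Chaperone and stress transcripts were mixed. HSPA8, the constitutive cytosolic HSP70, had levels of 8381, 8742 and 8940 at 180 min and 6448, 6134 and 6594 at 360 min. The times did not overlap, and the difference was −0.44 ± 0.06 (limma adjusted p = 2.5e-04), and no setting tried lost the call. Until 180 min 95.5% of its 0 min level had remained. Its co-chaperone DNAJB1 fell from 535, 584 and 595 to 353, 322 and 315 (−0.79). These were the 2 falls among 29 tested heat shock proteins and chaperonins, against 1.04% of all tested genes. None of the 29 rose, and the median of that list was 0.01. XBP1, the transcription factor of the unfolded protein response, fell from 159.5, 193 and 168 to 97.7, 75.8 and 72.1 (−1.08). It was the only gene past the threshold among 30 of that response, where 1.23% of all tested genes passed.

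Falls among transcripts of mitosis and replication are set beside the 1.04% of all tested genes that fell. Of 42 tested genes of G2 and mitosis, CCNA2 and BUB1 fell and none rose, and 32 lay below 0, with a median of −0.14. Without overlap of the libraries, 15 of the 42 were lower and 2 higher, against 9.46% and 9.74% of all tested genes. Of 49 tested genes of DNA replication and S phase, CDT1 fell and none rose, and 27 lay below 0, with a median of −0.02. CCNA2, the cyclin of S phase and early mitosis, was 498, 545 and 537 and then 318, 380.0 and 445. BUB1, a kinase of the spindle checkpoint, was 694, 616 and 755 and then 534, 448 and 412, and CDT1, a licensing factor of replication origins, was 686, 618 and 671 and then 476, 535 and 472. In the first 90 min the differences of these 3 genes were 0.06, 0.16 and 0.17, none past the threshold. Their late falls were close to it (limma adjusted p = 0.049, 0.037 and 0.049), and each was lost under at least 10 of the 16 other settings. Of 72 tested genes of mRNA decay and 3' end binding, BTG1 and YTHDF2, a reader of N6-methyladenosine that promotes decay, fell. YTHDF2 was 248, 337 and 319.8 and then 185, 189 and 189 (−0.67; limma adjusted p = 0.014).

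Several of the transcripts that fell encode nucleolar proteins that build ribosomal subunits. They were picked out after their values were seen and were on no list, so no count is set against other genes. MPHOSPH10, a component of the U3 particle that processes pre-rRNA, went from 199.7, 159 and 140.4 to 60.9, 64.7 and 82.6 (−1.25 ± 0.16; limma adjusted p = 3.6e-04). RRS1, which acts in assembly of the large subunit, went from 288, 299.8 and 269.9 to 138, 138 and 157 (−0.98). NOP16 fell from 455, 483 and 453 to 290.1, 289 and 274 (−0.70), and IMP3, another protein of the U3 particle, from 580.3, 568 and 545 to 324, 369.8 and 348 (−0.70). In each of these 4 genes both groups were fully apart. GNL3, a nucleolar GTPase also called nucleostemin, NIFK, UTP15 and POP7, a subunit shared by RNase P and RNase MRP, differed by −0.64, −0.61, −0.70 and −0.83, all past the threshold.

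Mitochondrially encoded transcripts split by gene. Mitochondrial DNA is transcribed by its own polymerase into long precursors that are cut into separate RNAs. Of the 15 tested, MT-ATP8, MT-CO3, MT-ND5, MT-ATP6, MT-ND3 and MT-ND2 fell, against 1.04% of all tested genes, and none rose. MT-ATP8, a subunit of ATP synthase, was 8165, 8169 and 8356 at 180 min and 4473, 4702 and 4398 at 360 min. Its libraries agreed closely within each time, and the difference was −0.86 ± 0.09 (limma adjusted p = 3.6e-05), the smallest adjusted p of the interval.

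MT-CO3, a subunit of cytochrome c oxidase, went from 10521, 11892 and 11775 to 7855, 7205 and 7518 (−0.60; limma adjusted p = 1.5e-04). Its sister subunits did not pass: MT-CO1 was 5303 to 5618 and then 5644 to 6087 (0.11), and MT-CO2 was 16665 to 19962 and then 17811 to 19685 (0.00). Of the complex I subunits, MT-ND5 (−0.56), MT-ND3 (−0.50) and MT-ND2 (−0.41) fell, while MT-ND4 differed by −0.15, MT-ND1 by −0.26 and MT-ND4L by −0.24, which did not pass.

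MT-ND6, the only mRNA of the other strand, showed a different course: 1523, 1613 and 1542 at 0 min, 135, 137 and 162 at 90 min, then 111, 107 and 91.1, and 75.6, 136 and 106 at 360 min. Nearly all of its loss lay before the interval. The ribosomal RNAs MT-RNR1 and MT-RNR2 differed by 0.05 and 0.14 and did not pass. MT-ATP8 overlaps MT-ATP6, MT-ND4L overlaps MT-ND4, and the nuclear genome holds near-identical copies such as MTND1P23, which also fell (−0.73), so the division of reads among these genes is uncertain. Mitochondrially encoded RNA made up 7.67% to 7.72% of the library total at 180 min and 7.22% to 8.21% at 360 min. The ribosomal RNA MT-RNR2 alone made up 4.34% to 4.50% and 4.37% to 5.03%, so this total says little of the mRNAs.

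The transcripts that rose included 7 of 81 cytosolic ribosomal protein genes, against 0.19% of all tested genes, but none of the 7 was called under either of the other scalings. Their median difference was 0.20, it became 0.13 with libraries at the same total, and it was 0.01 when libraries were scaled to these genes themselves. Relative to the other transcripts the pattern was broad: 79 of 81 lay above 0, and 64 were higher in all 3 later libraries than in all 3 earlier ones, where 9.74% of all genes were. RPS18, of the small subunit, was 14573, 14748 and 14527 and then 17741, 17467 and 16861 (0.25; limma adjusted p = 0.035), and RPL24 and RPS25 differed by 0.26 each. RPS18 and RPL24 each lost the call under 13 other settings, and RPS25 under 12. Near-identical processed copies of ribosomal protein genes make the division of reads among them uncertain.

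Other stable housekeeping messages moved in the same direction by similar amounts under the deposited scaling, and several of them were called in it alone. Of 69 nuclear genes of oxidative phosphorylation, 66 lay above 0, as 6210 of all 12096 tested genes did, and their median was 0.22. Only UQCRB, of complex III, passed (5187, 4785 and 5057, then 5759, 6193 and 5732), where 0.19% of all tested genes rose. It did not pass under either other scaling, and it lost the call under 13 other settings in all. PSMB6, a catalytic proteasome subunit, rose from 2509, 2466 and 2499 to 3151, 3150.1 and 2976 (0.31; limma adjusted p = 0.0071), and was called with equal totals but not with scaling to ribosomal protein genes. LDHA, lactate dehydrogenase, rose from 8131, 7868 and 7874 to 9145, 9639 and 8822 (0.21), under the deposited scaling only. PSMB6 lost the call under 4 other settings and LDHA under 12. Among 23 glycolysis genes LDHA was the only one past the threshold.

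Rises of individual genes were larger. DELE1, which relays mitochondrial stress to the cytosol, was 155, 117 and 148 at 180 min and 339.8, 345 and 241 at 360 min. The times did not overlap, the difference was 1.13 ± 0.19 (limma adjusted p = 0.0040), and it was called under all scalings. GPX1, a glutathione peroxidase, was 1268, 1394 and 1196 and then 1799, 1701 and 1933 (0.49), also under all scalings. C1GALT1, which extends O-linked glycans, differed by 0.94, DBNL, an actin-binding adaptor, by 0.69, TAGLN, an actin-bundling protein, by 0.61, and EIF4EBP1, a repressor of the cap-binding factor, by 0.56. These 4 were called with equal totals but not when scaled to ribosomal protein genes. Across all other settings, the call was lost under 9 for C1GALT1, 8 for DBNL and 7 each for TAGLN and EIF4EBP1. RBM3, a cold-inducible RNA-binding protein, and CETN2, a centrin, differed by 0.41 and 0.36 and were called under the deposited scaling only. RBM3 lost the call under 8 other settings and CETN2 under 12.

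A pair of small noncoding RNAs gained under every scaling. RNA5S1, a copy of 5S ribosomal RNA, which RNA polymerase III makes, was 57.2, 28.7 and 58.3 before the drug. It was 268, 350.0 and 325 after 180 min, against 1460.5, 1472 and 1180 after 360 min. It climbed at each time without overlap, 4.36-fold in the last interval (2.12 ± 0.28; limma adjusted p = 4.3e-04). Several near-identical 5S genes exist, so the value is not that of 1 locus. SNORA7A, a box H/ACA small nucleolar RNA, was listed at 0 in all 3 libraries at 180 min and was 39.9, 53.9 and 56.6 at 360 min, at least 15.5-fold higher than a floor of 3 reads per library. It had been 77.9, 141 and 91.9 at 0 min, so its level at 180 min was a low between higher ones.

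RNA5-8SN2, a copy of 5.8S ribosomal RNA, was the only gene called in opposite directions in the first and the last interval. Before the drug it was 379.6, 503 and 337, and after 90 min 804, 856 and 969. It was then 758, 695 and 664 (180 min), and finally 392, 459 and 375 (360 min). The gain of 1.12 in the first 90 min (limma adjusted p = 5.1e-05) was thus followed by a loss of 0.79 in the last 180 min (limma adjusted p = 0.0072), and the final level was 101% of the first. These RNAs carry no poly(A) tail in their mature form, and the part that priming or tailing has in these values was not tested.

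**Figure D3:**
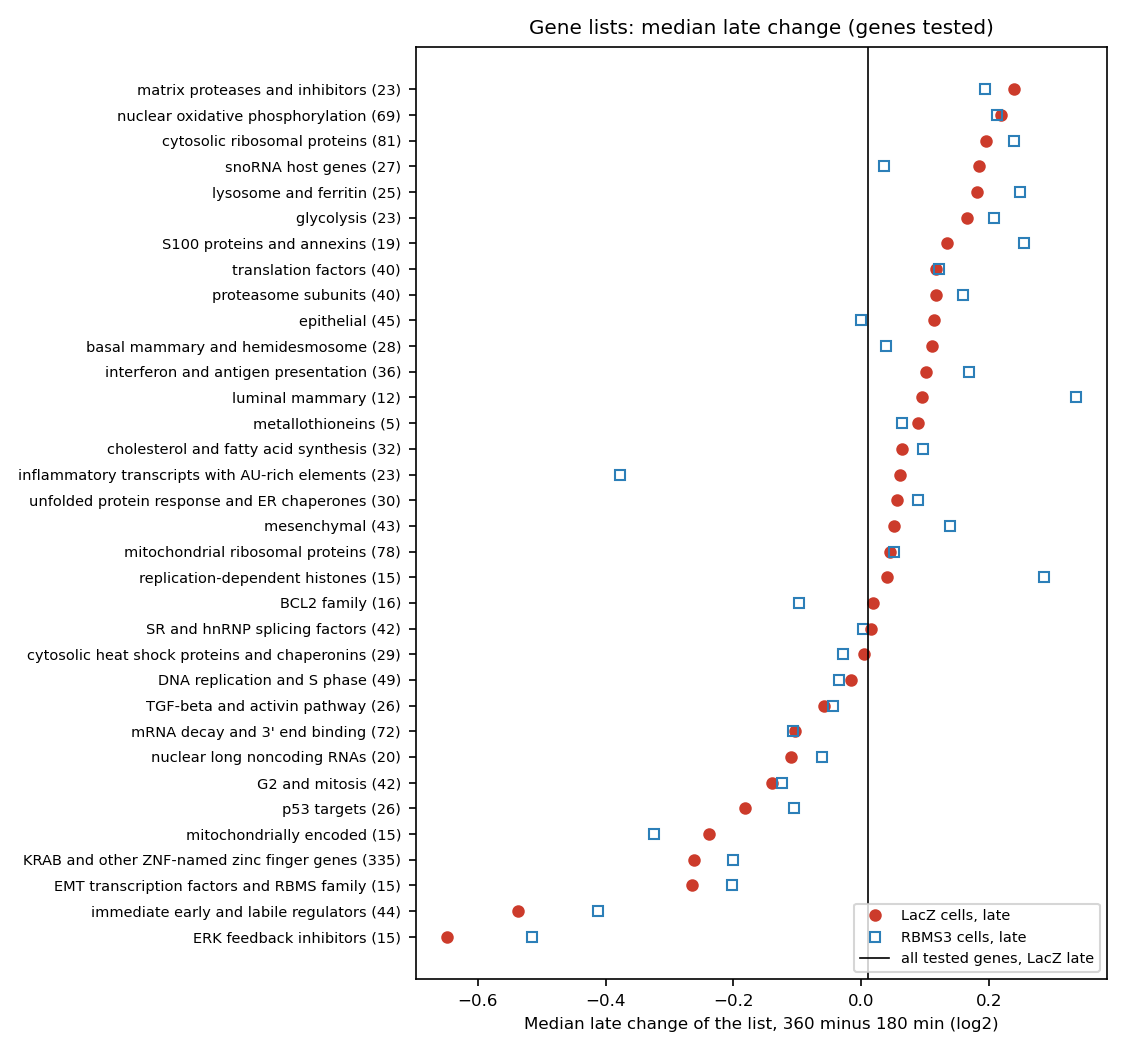
Median late difference (log2, 360 minus 180 min) of 34 gene lists with at least 5 tested genes, in LacZ cells (filled circles) and RBMS3 cells (open squares), with the number of genes tested in brackets and the median of all tested genes as a line at 0.01. ERK feedback inhibitors and labile regulators lie lowest in LacZ cells, at −0.65 and −0.54, and oxidative phosphorylation and matrix proteases highest, at 0.22 and 0.24.

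Of 335 tested genes named ZNF, 2 fell, against 1.04% of all tested genes, and 1 rose, against 0.19%. Below 0 lay 225 of them, with a median of −0.26 against 0.01 for all tested genes, and it was −0.44 when libraries were scaled to ribosomal protein genes. ZNF622 (99.2, 81.3 and 117, then 43.9, 47.1 and 52.0; limma adjusted p = 0.017) and ZNF331 fell, and ZNF28 rose, from 0.298, 0.154 and 3.31 to 65.1, 28.5 and 48.8. ZNF28 had been 24.8, 56.2 and 0.449 at 90 min, so its libraries varied from one to the next. Among transcription factors of the epithelial-mesenchymal transition and the RBMS family, SOX9 and FOXC1 fell out of 15, with a median of −0.26. FOXC1 was 127, 75.7 and 102 and then 53.1, 45.2 and 53.2 (−0.97). FOXC1 lost the call under 9 other settings and ZNF622 under 6.

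Of 15 tested replication-dependent histone genes 9 fell in the first 90 min, when 2.74% of all tested genes did, and 1 fell late, when 1.04% did. H1-3, a linker histone, was 292, 392 and 316 at 0 min, 2.86, 1.16 and 4.91 at 90 min, 1.14, 0 and 0 at 180 min and 0 in all 3 libraries at 360 min, under the floor of 3 reads. H4C3, which encodes the core histone H4, was the 1 that fell late: 3116, 2935 and 2678 and then 1963, 1888 and 1715 (−0.65; limma adjusted p = 0.014). H4 genes encode the same protein in many copies, so its reads may come from more than 1.

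Epithelial and basal mammary genes had no late call, while the luminal mammary and mesenchymal lists had 1 each. These were XBP1, lower, among 12 tested luminal genes, and TAGLN, higher, among 43 tested mesenchymal genes. With 1.23% of all tested genes called, the lack of a call in lists of this size says little. None of 45 epithelial and 28 basal mammary genes passed the late test, and their medians were both 0.11, turning to −0.07 each when libraries were scaled to ribosomal protein genes. Without overlap, 6 epithelial and 9 basal genes were higher, where 9.74% of all tested genes were. Another 2 and 3 were lower, where 9.46% of all tested genes were. DSP, a desmosomal protein, was 4614 to 5335 and then 4371 to 4693, and EPCAM, an epithelial adhesion molecule, 2159.9 to 2208 and then 2045 to 2263. No gene passed in the lists of p53 targets (26 tested, median −0.18), interferon and antigen presentation (36, 0.10), mitochondrial ribosomal proteins (78, 0.04), snoRNA host genes (27, 0.19), nuclear long noncoding RNAs (20, −0.11), TGF-beta and activin (26, −0.06) or metallothioneins (5, 0.09). CDKN1A, the cell cycle inhibitor p21, was 881, 723 and 692 and then 712, 811 and 763. MALAT1, a nuclear noncoding RNA, was 8369, 9491 and 10176 and then 6939, 6982 and 7714, without overlap but with a limma adjusted p of 0.30.

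Genes with a single coding exon made up a larger share of the late falls than of all tested genes. This was noticed in the list of genes that fell and is given as a description. Of the 118 nuclear protein-coding genes that fell, 30 have their whole coding sequence in 1 exon of the reference transcript (25.4%, exact 95% interval 17.9% to 34.3%), against 5.05% of the 11292 such genes tested and none of the 20 that rose, which allows up to 16.8%. The share was also above that of all tested genes among the falls of the first 90 min (39 of 287, 13.6%), and it was 2.28% among the rises (9 of 394). Examples are KLHL9, RTL6, FLRT3, CCDC8 and FASTKD5 among the largest falls, with PHLDA1, FOXC1, ARF6, RRS1, IMP3, POP7, IER5 and the TFIID subunit TAF7. Genes of this class can hold further exons without coding sequence: RTL6 and FLRT3 have 2 exons in the reference transcript, 1 of them coding. KLHL9 lies on the minus strand of chr9:21329671-21335380 with 1851 coding bases, and RTL6 on the minus strand of chr22:44492572-44498298 with 717 (GRCh38).

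The shift held for the class as a whole and not just for the genes called. The median late difference was −0.22 over 570 tested genes with 1 coding exon, −0.08 over 498 with 2, 0.06 over 2319 with 3 to 5, 0.05 over 3330 with 6 to 10, −0.00 over 3125 with 11 to 20 and −0.03 over 1450 with more. The median of the genes with 1 coding exon was −0.13 in the first 90 min and −0.22 from 90 to 180 min, which shares the 180 min libraries. Genes with 1 coding exon were lower in level (median 54.4 at 180 min, against 161 to 186 for genes with 3 or more). Among genes with a mean of at least 100 the median late difference was −0.16 for 245 genes with 1 coding exon and 0.06 for 2195 genes with 6 to 10. Those 245 genes had a median of 0.002 in the first 90 min. With scaling to ribosomal protein genes the median for 1 coding exon was −0.40, and that of 6 to 10 coding exons −0.13. Removing the histone genes left it at −0.23 (556 genes). The share of such genes among the falls was 15.01% with scaling to ribosomal protein genes. With only the 6 libraries in the fit it was 16.7%, a share of very few genes that says little.

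In each library the median of the 570 single-exon genes, centred per gene over the 12 LacZ libraries, was set against that of the 10722 others. The difference was 0.41, 0.17 and 0.41 before the drug, then 0.17, 0.14 and 0.15 (90 min), −0.13, −0.07 and −0.05 (180 min), and finally −0.31, −0.31 and −0.34 (360 min). All 3 libraries at 360 min lay under all 3 at 180 min. In RBMS3 cells it was −0.09, −0.08 and −0.11 at 180 min and −0.42, −0.39 and −0.35 at 360 min. Among genes with a mean of at least 100, the LacZ values were 0.23, 0.05 and 0.22 before the drug. They overlapped those at 90 min (0.13, 0.12 and 0.13). Coding length went with the late difference too, at a Spearman rho of −0.17 across the 11292 genes, and coding junctions per kilobase at 0.22. These genes share the same 6 libraries and differ in level, so neither value is a test, and the part of length or level in the pattern was not tested.

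**Figure D4:**
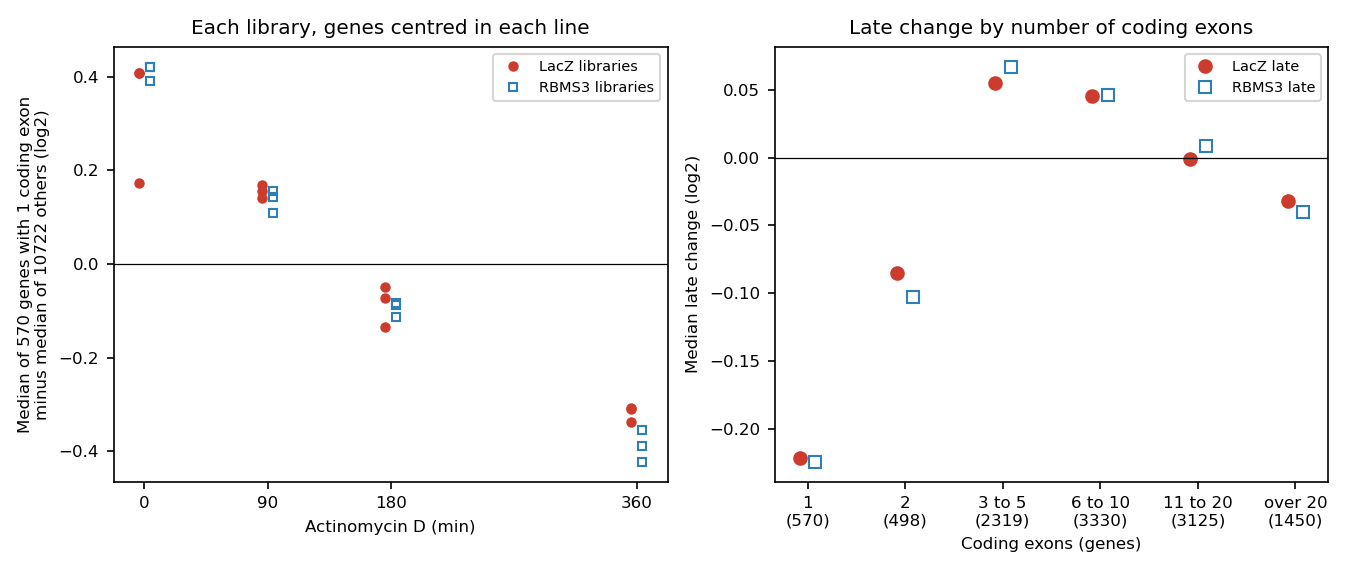
Left, for each library, the median of 570 genes with 1 coding exon minus the median of 10722 other protein-coding genes (log2, each gene centred within its line) against min of actinomycin D. Right, median late difference (log2) by number of coding exons, with the number of genes in brackets. Genes with 1 coding exon lie lowest in both lines, at −0.22.

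Late falls were partly the continuation of earlier ones. The first interval, 90 against 0 min, uses other libraries. In it 331 genes fell and 416 rose in limma, 2.74% and 3.44% of those tested and 6.18% together. LacZ 0 min replicate 2 correlated least with its group, at a Pearson r of 0.909, and the count of 747 was 1161 without LacZ 0 min replicate 1, 392 without LacZ 90 min replicate 1, 415 without LacZ 90 min replicate 3 and 257 with only the 12 LacZ libraries. Of the 126 late falls 38 had also fallen in the first 90 min (30.2%), and 103 lay below 0 there, as 49.5% of all tested genes did. Of the 23 late rises 9 had risen in the first 90 min. Read from the other side, 38 of the 331 early falls fell again late (11.5%) and none rose, and 9 of the 416 early rises rose again (2.16%).

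Of the 126 late falls 79 were called in neither the first nor the middle interval (180 against 90 min). The middle interval shares the 180 min libraries with the late one, so its values are only set beside them: 43 genes fell and 19 rose in it, 0.355% and 0.157% of those tested and 0.513% together. The mean of 92 of the 126 genes went down at every later time. The last of these steps was given by their selection, so the 12.4% of all tested genes that did so is not a like comparison.

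The rate in log2 units per hour was compared between the last 3 h and the first 1.5 h. It was higher late, which for a falling gene means slower loss, in 118 genes, and lower late in 108, in limma (0.976% and 0.893% of those tested, 1.87% together), and the total was 102 with only the 12 LacZ libraries. In the first set were histone genes that were at or near 0 by 180 min: H1-3 by 4.21 and H2AC14 by 3.26 per hour. The second set held small nucleolar RNAs, whose gains were faster early than late. SNORD13, which guides modification of 18S ribosomal RNA, was 333 to 516 at 0 min, 1838 to 2093 at 90 min, 2807 to 3124 at 180 min and 3231 to 3832 at 360 min, a rate difference of −1.43. Among the 126 late falls, the rate was lower late than early in 4 and higher late in 12. A gene of the 4 need not have fallen early: in the first 90 min RTL6 differed by 0.13 and HSPA8 by 0.07. RTL6 was one of the 4 (−0.86 per hour; limma adjusted p = 0.035), HSPA8 another (−0.19; limma adjusted p = 0.017), and KLF6 was one of the 12 (0.81).

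**Figure D5:**
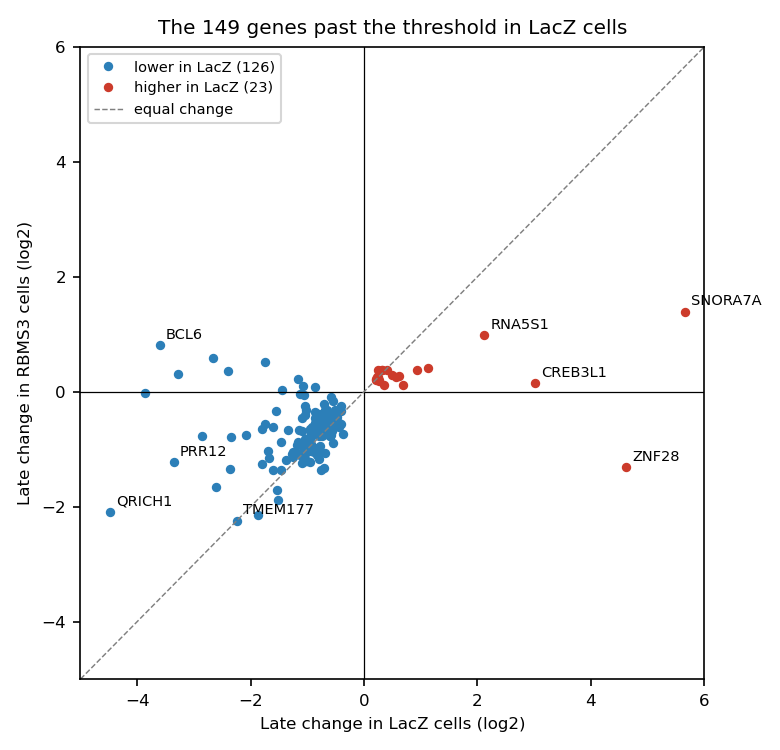
Late difference in RBMS3 cells (vertical axis, log2) against that in LacZ cells (horizontal axis, log2) for the 149 genes past the threshold in LacZ cells, with the line of equal change. Of the 126 that fell, 117 lie below 0 in RBMS3 cells, and of the 23 that rose 22 lie above 0, while SNORA7A, ZNF28 and BCL6 lie far from the line.

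The same interval in RBMS3 cells, measured in 6 other libraries, showed mostly the same directions. There 227 genes fell and 107 rose in limma, 1.88% and 0.885% of those tested and 2.76% together. Its count of 334 was 152 without RBMS3 180 min replicate 2, 161 without RBMS3 360 min replicate 1, 189 without RBMS3 180 min replicate 1, 210 without RBMS3 180 min replicate 3 and 218 without RBMS3 360 min replicate 2. Of the 126 genes that fell in LacZ cells, 117 lay below 0 in RBMS3 cells, as 47.9% of all tested genes did, and 75 fell there past the threshold (59.5%). Of the 23 that rose, 22 lay above 0 and 11 passed. The median difference of the 126 was −0.93 in LacZ cells, in which they were chosen, and −0.70 in RBMS3 cells.

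HSPA8 is an example of close likeness, with −0.44 in LacZ and −0.61 in RBMS3 cells (8661, 8519 and 8874, then 5561, 5755 and 5802; limma adjusted p = 8.3e-06). BTG1 differed by −1.12 and −1.10, KLHL9 by −1.68 and −1.16, and XBP1 by −1.08 and −1.03, each past the threshold in both lines. RRS1 and IMP3 fell in both as well, by 0.98 and 0.96 and by 0.70 and 1.33 on the log2 scale. Of 216 nuclear protein-coding genes that fell in RBMS3 cells, 42 had 1 coding exon (19.4%), and of 101 that rose none had. Across all 12096 genes the late differences of the lines had a Spearman rho of 0.27, and 0.42 over 7355 genes with a mean of at least 100. The genes of one such comparison share their libraries, so these values are descriptions.

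Whether the late change differed between the lines was tested directly as LacZ minus RBMS3. No gene passed in limma (0 of 12096, smallest adjusted p = 0.053), and 618 genes, 5.11%, had an unadjusted p under 0.05. TSC22D1, a leucine zipper protein responsive to TGF-beta, had this smallest value together with FAM71F2. It differed by 0.56 in LacZ and by −1.24 in RBMS3 cells and is named because it passed in limma with a pseudocount of 0.5 or with trend off and robust on (adjusted p = 0.042 and 0.043), and also without LacZ 360 min replicate 3 (0.0073) or RBMS3 180 min replicate 2 (0.048). Genes such as RTL6 (−2.34 and −0.79) and SNORA7A (5.66 and 1.39) passed in LacZ cells alone, but their difference between lines had limma adjusted p-values of 0.60 and 0.64. The result does not show that the lines behaved alike.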

How the data were processed

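Polyadenylated RNA of HMLE/LacZ and HMLE/RBMS3 cells was sequenced from its 3' ends, per the labels' protocols. The submitters' processing notes name Salmon 1.4.0, DESeq2 1.32.0 and Trim Galore 0.6.6, and no source used here names a genome build. A table was deposited by the authors of normalized signal (normalized counts) for 38849 genes and 24 libraries. Its values are not whole reads: after division by the worth of 1 read, only 37.4% to 45.8% of those under 50 came within 0.02 of an integer. No count test was therefore run. The estimated counts and TPM values the authors deposited per transcript, per the file headers, served only to check labels (TPM was not used).

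Differences were fitted with limma 3.58.1 (R 4.3.3), with a trend and without robust estimation, on log2 of the normalized count plus 1, with 8 group means over 24 libraries, genes with a mean of at least 10, Benjamini-Hochberg adjustment, threshold 0.05. Fold changes on this scale understate changes of low genes, and each SE pools the spread of all 8 groups. The script was tested on simulated data.

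Members and lists (35 lists, 1736 genes, 1405 tested) were chosen with earlier results of these data known. Named genes were the 12 largest changes in each direction among called genes with a mean of at least 50 and no overlap of libraries, up to 4 per list by the same conditions, or the 2 most abundant where none passed, RBMS3 and PRRX1, up to 6 per direction for the line and rate differences and for reversals; genes named beyond this were chosen after their values were seen. Gene structure and sequence came from 1 transcript per gene of GENCODE release 29 (GRCh38), matched by symbol (38766 of 38849). Floors are 3 reads per library and, like intervals, cover counting error only. Alternatives were other pseudocounts (0.5 and 5), filters, scalings, a replicate block, trend off with robust on, fewer libraries in the fit and each library left out. Figures used matplotlib 3.10.9.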

Additional observations from a re-analysis of the deposited data

How the results depend on the processing

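All values are relative within libraries, with 3 libraries a group and 6407871 to 8037188 implied reads in the 6 compared. The late LacZ change, 149 genes, gave 438 with scaling to ribosomal protein genes, 46 with only the 12 LacZ libraries, 13 with only the 6 libraries compared, and 71 to 103 leaving out 1 library. The late RBMS3 change, 334 genes, gave 906 with ribosomal scaling, 216 with trend off and robust on, and 152 to 257 leaving out 1 library. The rate difference, 226 genes, gave 102 with the 12 LacZ libraries and 153 to 326 leaving out 1 library. The first interval, 747 genes, gave 257 with the 12 LacZ libraries and 392 to 1161 leaving out 1 library. The middle interval, 62 genes, gave 139 with ribosomal scaling, 18 with the 12 LacZ libraries and 20 to 40 leaving out 1 library. The line difference, 0 genes, gave 3 with a pseudocount of 0.5 (FAM71F2, IRX1, TSC22D1), 1 without a filter (RN7SKP118), 2 with trend off and robust on (IRX1, TSC22D1), and 0 to 2 leaving out 1 library. A replicate block gave 122 calls for the late LacZ change, 107 of them shared, but libraries with the same number did not deviate together (r −0.007 to 0.030), so the numbers were not taken as pairs. None of the 50 named genes with a late call changed sign. Over gene and setting, the call was kept 353 times and lost 144 times under the 10 other settings, and kept 175 times and lost 125 times when 1 of the 6 libraries was left out. The share of genes with 1 coding exon among the falls was 15.01% with ribosomal scaling and 25.0% to 31.5% leaving out 1 library. With only the 6 libraries it was 16.7%, but only 13 genes were called there in both directions together.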

Other observations

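Of the 126 genes that fell, 15 had a higher mean at 180 min than before actinomycin D. RANBP2, a nucleoporin, was 969.8, 1398 and 598 at 180 min against 407, 421 and 428 at 360 min, and OPA1, which fuses mitochondrial inner membranes, 985, 611 and 769 against 540.5, 430.1 and 333. The SD of the 3 libraries was 400.4 at 180 min and 10.7 at 360 min for RANBP2, and 188 and 104 for OPA1. TIGAR, a p53 target, had 3346 in LacZ 180 min replicate 2 and 65.8 and 47.2 in the other 2 libraries. These genes were chosen after their values were seen, and the cause was not tested.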
